A study of Mus musculus with 32 samples.

Results

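The 10 genes described here, Mrc1, Cd163, Pf4, Folr2, F13a1, Stab1, Cbr2, Clec4n, Ms4a7 and Pla2g2d, are genes used to recognise border-associated macrophages (BAMs). They were chosen by symbol, and all 10 were found among the 22337 genes of the expression tables. RNA was sequenced from 32 samples of 6-month-old male C57BL/6J mice, and the labels give 9 groups. WT mice were littermates without the transgenes. 5xFAD mice carry mutant human transgenes of familial Alzheimer's disease under the Thy1 regulatory sequence, so the transgenes are active mainly in neurons. Light-treated 5xFAD mice (5xFAD+L) received repeated near-infrared illumination through the intact scalp under isoflurane, and untreated mice went through the same anaesthesia and shaving under indoor lighting. The hippocampus (HPC) was sampled in 4 WT, 4 5xFAD and 4 5xFAD+L mice, whole meninges in 4, 3 and 3, and meningeal lymphatic endothelial cells (mLECs) in 4, 3 and 3. The mLECs were sorted as CD45-negative, CD31-positive, podoplanin-positive cells from the digested meninges of single mice.

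BAMs are the resident macrophages of the meninges, the perivascular spaces and the choroid plexus, and they are distinct from the microglia of the brain tissue itself. They sample the cerebrospinal fluid and take up proteins, debris and lipids from it. Mrc1 (the macrophage mannose receptor), Cd163 (the scavenger receptor for haemoglobin and haptoglobin complexes), Stab1 (the scavenger receptor stabilin-1), Folr2 (folate receptor beta) and Clec4n (the fungal lectin receptor dectin-2) encode receptors. Pf4 (platelet factor 4), F13a1 (the A subunit of coagulation factor XIII) and Pla2g2d (a phospholipase A2) encode secreted proteins. Cbr2 encodes a carbonyl reductase and Ms4a7 a membrane-spanning protein. Pf4 is also a gene of platelets, and Stab1 is also known in lymphatic and sinusoidal endothelium.

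Promoter sequence was available from RefSeq (GRCm38.p6) for 9 of the 10 genes, as 300 bases from 250 before to 50 after a transcript start. Those of Cd163 (chr6:124304401-124304700, plus strand), Pf4 (chr5:90772185-90772484, plus strand) and Pla2g2d (chr4:138775485-138775784, plus strand) are shown because the differences described below turn on these genes. Capitals mark matches, on either strand, to the PU.1 core GAGGAA, the MAF half-site TGCTGAC or the glucocorticoid receptor half-site AGAACA.
Cd163: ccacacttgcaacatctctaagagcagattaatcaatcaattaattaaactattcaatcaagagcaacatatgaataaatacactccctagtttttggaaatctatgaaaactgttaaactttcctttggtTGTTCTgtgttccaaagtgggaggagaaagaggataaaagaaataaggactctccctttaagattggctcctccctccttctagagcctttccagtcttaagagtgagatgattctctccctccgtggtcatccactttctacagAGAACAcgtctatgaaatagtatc
Pf4: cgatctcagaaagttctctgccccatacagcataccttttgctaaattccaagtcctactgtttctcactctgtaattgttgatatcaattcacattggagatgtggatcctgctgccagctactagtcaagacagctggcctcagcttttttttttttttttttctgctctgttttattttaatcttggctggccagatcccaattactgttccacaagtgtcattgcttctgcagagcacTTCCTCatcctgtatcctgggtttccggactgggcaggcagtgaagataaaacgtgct
Pla2g2d: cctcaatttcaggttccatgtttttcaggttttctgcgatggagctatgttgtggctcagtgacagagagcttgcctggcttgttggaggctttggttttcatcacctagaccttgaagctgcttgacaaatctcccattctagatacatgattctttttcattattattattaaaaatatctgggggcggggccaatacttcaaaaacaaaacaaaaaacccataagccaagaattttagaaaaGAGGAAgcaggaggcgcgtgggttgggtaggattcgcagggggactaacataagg
The PU.1 core, recognised by the lineage factor of macrophages, stood in 8 of the 12 promoters of the 9 genes (in Cbr2, F13a1, Mrc1, Ms4a7, Pf4, Pla2g2d and Stab1) and in 28.3% of all 32851 promoters. It lay at -8 in Pf4 and at -5 in Pla2g2d, counted from the transcript start. The glucocorticoid receptor half-site was found in 3 of the 12, 1 each of Cd163 (at -119 and at 26), Folr2 and Ms4a7, and in 19.0% of all promoters. The MAF half-site was found in 1 of the 12, that of Cbr2, and in 4.67% of all promoters. A match describes the letters only.

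The deposited values were expected counts of reads per gene and FPKM, in which the count is divided by the length of the transcript and the size of the library. Total counts ran from 6601143 to 14708202 in meninges, from 13952825 to 23856476 in HPC and from 14231415 to 24207326 in mLECs. Counts were tested with edgeR's quasi-likelihood test and adjusted by the Benjamini-Hochberg method over all tested genes. A gene was tested when its FPKM reached 1 in 3 or more samples, and a gene was called when its adjusted p was below 0.05 with at least a 2-fold change. The p-values measure the spread between single mice. Thy1, whose regulatory sequence is in the transgenes, had an HPC FPKM of 407 to 622 in 5xFAD and 170 to 189 in WT mice.

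BAM genes marked the meninges. In WT mice all 10 genes were called higher in meninges than in HPC, where 50.0% of the 14144 tested genes were called in either direction, 4000 of them higher in meninges. The median log2 fold change of the 10 was 5.01, against 0.07 over all tested genes. The largest difference was that of Cbr2 (log2 fold change 7.13, SE 0.39, adjusted p = 1.83e-07), a 140-fold higher level in meninges. The smallest was that of Stab1 (4.15, SE 0.26, adjusted p = 3.38e-07), which is 17.8-fold. In none of the 10 did the FPKM of a WT meninges sample overlap that of a WT HPC sample. Lack of overlap was common between these tissues: of 20929 genes with a count, 6147 were higher and 4534 lower in meninges without overlap. Tissue was taken whole, so more cells of a type and more RNA per cell cannot be told apart. A list of 8 choroid plexus genes summed to an FPKM of 15880 to 42120 in WT meninges and 36.9 to 2831 in WT HPC. The part of choroid plexus tissue in the BAM gene difference was not tested.

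Within the meninges, the 10 genes stood at very different levels per length of transcript. Pf4 had the highest mean FPKM over the 10 samples, 206 ± 80.0 (SD), with a range of 101 to 398. It was followed by Cbr2 at 135.5 ± 48.7, Stab1 at 54.4 ± 23.4, Ms4a7 at 38.6 ± 12.8 and Clec4n at 31.4 ± 14.6. Folr2, Mrc1, F13a1 and Pla2g2d had means between 13.1 and 19.4. Cd163 was lowest at 2.77 ± 0.61, and its highest sample (3.56) lay below the lowest sample of Pla2g2d (5.13). All other neighbours in this order overlapped. In HPC the order began in the same way, with Pf4 at 3.31 ± 2.58, Cbr2 at 1.52 ± 1.00 and Stab1 at 1.17 ± 0.56 over 12 samples, and ended with Cd163 at 0.19 ± 0.11. Every pair of neighbours overlapped there.

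The question of the next comparison was whether the BAM genes of the meninges differed in the amyloid model. None of the 10 was called between untreated 5xFAD and WT meninges by edgeR, and 0.0% of 14318 genes were. At an unadjusted p below 0.05 the count was also 0 of 10, against 4.01% of all tested genes, and DESeq2 and limma called none. Of the 10, 5 had a positive and 5 a negative log2 fold change, with a median of -0.02 against 0.00 over all genes. Pla2g2d lay furthest from 0, at -0.73 (SE 0.35, adjusted p = 0.987). Its FPKM was 11.20, 9.61, 6.63 and 14.28 in WT mice and 5.48, 5.13 and 7.75 in 5xFAD mice. The highest 5xFAD value lay above the lowest WT value, so the groups overlapped.

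**Figure D1:**
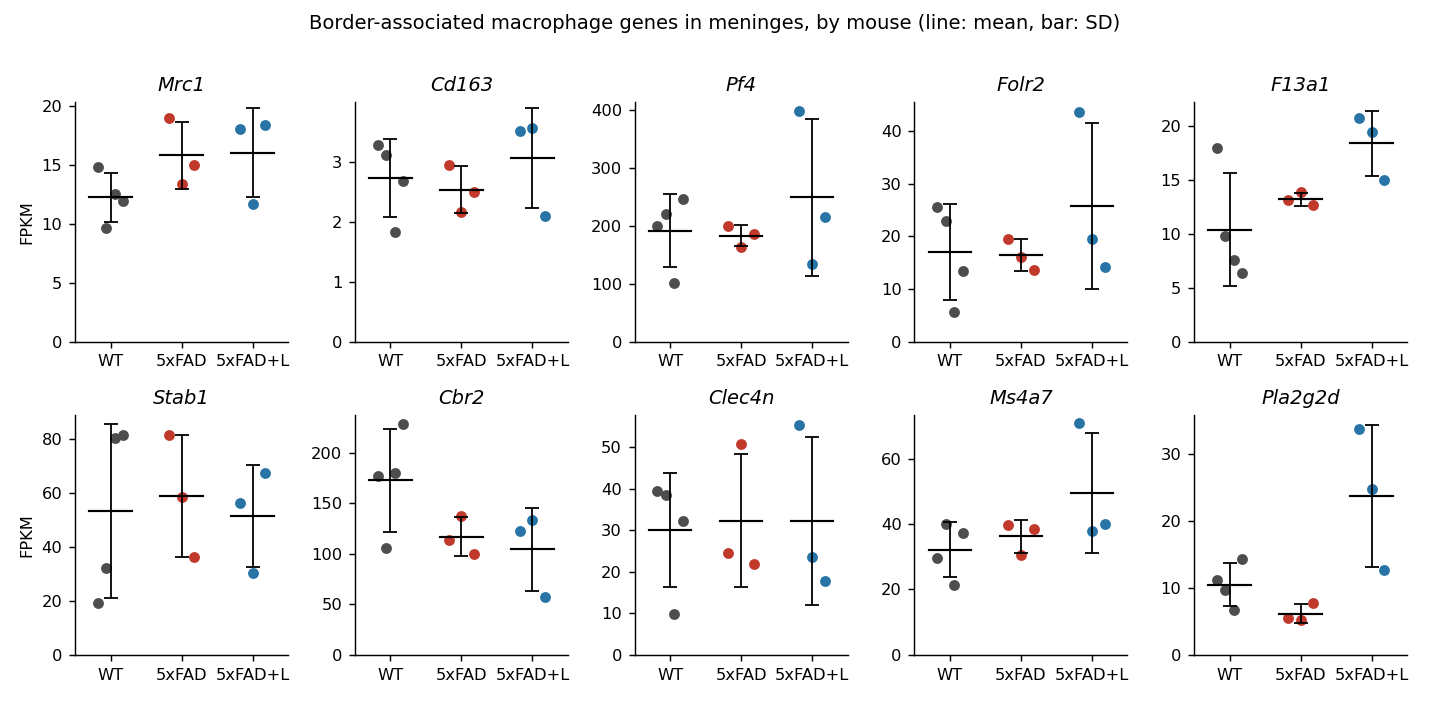
FPKM of the 10 genes in meninges (y axis, linear, from 0) for each mouse of the WT, 5xFAD and 5xFAD+L groups, with the mean as a line and the SD as a bar. Pla2g2d in 5xFAD+L mice (12.69 to 33.68) lies above all 5xFAD mice (5.13 to 7.75), while in most other panels the groups overlap.

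Light-treated and untreated 5xFAD meninges differed most in Pla2g2d. Its FPKM was 33.68, 24.70 and 12.69 in 5xFAD+L mice, against 5.48, 5.13 and 7.75 in 5xFAD mice. The groups did not overlap, and 2 of the 3 light-treated mice were also above all WT mice. The fold change was 3.63 (log2 1.86, SE 0.37), and it was not called by edgeR (unadjusted p = 0.000217, adjusted p = 0.249). DESeq2 on the same genes called it, with an adjusted p of 0.00231, so the call rests on the tool. Fits that left out a single mouse gave log2 fold changes of 1.44 to 2.12 with adjusted p between 0.237 and 0.533. Lymphocyte genes moved in the same libraries. A list of 9 B and T cell genes summed to an FPKM of 41.5 to 83.2 in 5xFAD+L and 29.9 to 33.8 in 5xFAD mice. Of these, 4 had an unadjusted p below 0.05 with higher values, against 12.7% of all tested genes in either direction. The part of the lymphocyte genes in the Pla2g2d difference was not tested.

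The other 9 genes had smaller differences in this comparison. F13a1 was at 20.69, 19.46 and 14.97 in 5xFAD+L mice and at 13.11, 13.86 and 12.67 in 5xFAD mice. These groups did not overlap either, with a log2 fold change of 0.47 (SE 0.32, adjusted p = 0.542). Thus 2 of the 10 had no overlap with higher values after light, against 10.1% of the 14318 tested genes. By edgeR 0 of 10 were called, against 0.014% of all tested genes, and 1 of 10 (Pla2g2d) had an unadjusted p below 0.05, against 12.7%. The median log2 fold change was 0.37, against 0.04 over all genes, with 8 of 10 above 0. Pf4 (398, 133 and 216 in 5xFAD+L mice) and Folr2 (43.58, 19.46 and 14.21) were highest in the same mouse, light-treated replicate 1, and without that mouse Pf4 was at -0.10. The median of the 10 was then -0.06, with 4 of 10 above 0, so the direction of the group rests on that mouse.

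Against WT meninges, light-treated 5xFAD meninges had 0 of 10 genes called by edgeR (0.014% of all tested genes) and none by DESeq2 or limma. An unadjusted p below 0.05 was found for 4 of 10, against 16.4% of all genes. Pla2g2d had a log2 fold change of 1.12 (SE 0.33, adjusted p = 0.156), F13a1 of 0.83 (SE 0.30, adjusted p = 0.206) and Ms4a7 of 0.65 (SE 0.30, adjusted p = 0.304). Cbr2 pointed the other way, at -0.75 (SE 0.31, adjusted p = 0.257). Its FPKM was 122.17, 133.77 and 56.98 in 5xFAD+L mice and 176.58, 105.47, 180.17 and 228.50 in WT mice, with overlap. All comparisons of a tissue share samples: the untreated 5xFAD mice stand in both that with WT and that with light.

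The hippocampus gave a different picture, at far lower levels. Of the 10 genes, 4 (Pf4, Folr2, Stab1 and Cbr2) passed the filter in HPC, so all 20292 genes with a count were also fitted, which gave a value for every one of the 10. In that fit all 10 genes had a positive log2 fold change in untreated 5xFAD over WT mice, with a median of 1.09 against 0.02 over all genes. By edgeR 2 of 10 were called, Cd163 and Pf4, against 3.36% of the 20292 genes, and 6 of 10 had an unadjusted p below 0.05, against 19.2%. Over the 4 genes that passed the filter, 1 was called (Pf4), against 4.28% of 12981. These 4 passed on levels that include the 5xFAD mice.

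Cd163, the haemoglobin scavenger receptor, had an FPKM of 0.13, 0.10, 0.06 and 0.13 in WT HPC, 0.36, 0.32, 0.36 and 0.25 in 5xFAD HPC and 0.10, 0.16, 0.09 and 0.16 in 5xFAD+L HPC. The 5xFAD mice lay above both other groups with no overlap, while WT and 5xFAD+L mice overlapped. Behind these values stood 4 to 14 reads a sample in WT and 20 to 33 in 5xFAD mice. The log2 fold change over WT was 1.59 (SE 0.41, adjusted p = 0.0295), which is 3.00-fold. This call was kept in 1 of 8 fits that left out a mouse (adjusted p 0.0257 to 0.0926), while the fold change stayed between 1.42 and 1.71.

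Pf4, the chemokine also called platelet factor 4, was at 2.31, 1.21, 2.38 and 1.56 in WT HPC, 3.39, 6.09, 10.31 and 3.44 in 5xFAD HPC and 0.97, 3.10, 2.34 and 2.56 in 5xFAD+L HPC. Again the 5xFAD mice lay above both other groups with no overlap, and replicate 3 was highest. The log2 fold change over WT was 1.63 (SE 0.43, adjusted p = 0.0328) among the filtered genes. Without 5xFAD replicate 3 it was 1.21 (adjusted p = 0.0811), and the call was kept in 2 of 8 fits that left out a mouse. The platelet list, of 8 genes such as Ppbp, summed to an FPKM of 2.5 to 5.1 in every HPC sample.

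**Figure D2:**
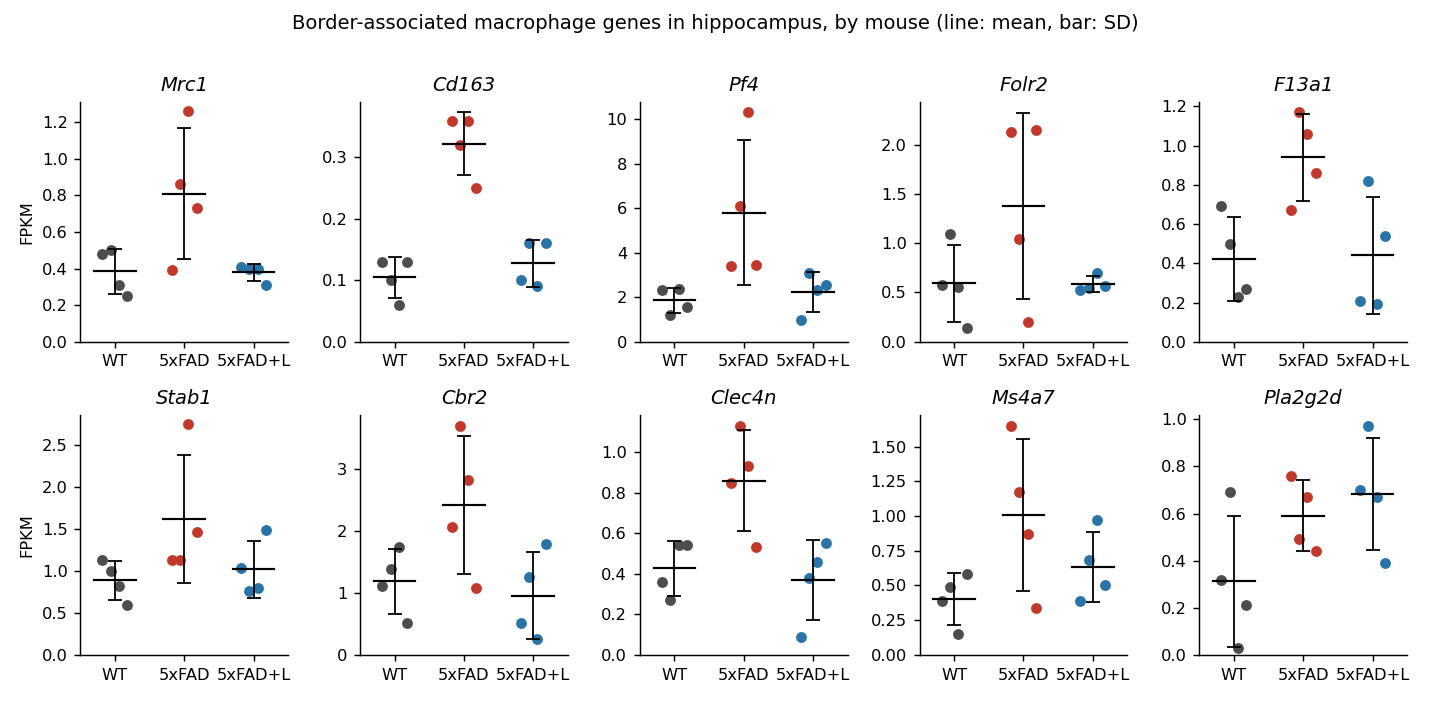
FPKM of the 10 genes in HPC (y axis, linear, from 0) for each mouse of the WT, 5xFAD and 5xFAD+L groups, with the mean as a line and the SD as a bar. Cd163 and Pf4 are the 2 genes in which all 5xFAD mice lie above all mice of both other groups.

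The remaining HPC genes were higher on average in 5xFAD mice but overlapped with WT. Mrc1 was at 0.39, 0.86, 1.26 and 0.73 in 5xFAD and at 0.48, 0.50, 0.31 and 0.25 in WT mice, with a log2 fold change of 1.04 (SE 0.33, adjusted p = 0.0817). DESeq2 called Mrc1 as well (adjusted p = 0.0313), which made 3 of 10. The edgeR share of 3.36% is no background for that count, since DESeq2 called more genes than edgeR in several other comparisons. The share of all genes called by DESeq2 here is not given, so the count is not read as a result. Ms4a7 was at 1.65, 1.17, 0.87 and 0.34 in 5xFAD and at 0.39, 0.49, 0.15 and 0.58 in WT mice (log2 fold change 1.52, SE 0.51, adjusted p = 0.0986).
Folr2 was the most uneven within the 5xFAD group, at 2.13, 1.04, 0.20 and 2.15. Replicate 3, the highest in Pf4 and Mrc1, was the lowest in Folr2. Stab1, among the filtered genes, had a log2 fold change of 0.72 (SE 0.24, adjusted p = 0.0817). F13a1 (1.14, SE 0.44), Cbr2 (1.00, SE 0.57), Clec4n (0.98, SE 0.50) and Pla2g2d (0.89, SE 0.58) had adjusted p between 0.157 and 0.435. Cd163 and Pf4 were thus 2 of 10 without overlap, against 6.9% of all genes with a count that were higher in 5xFAD mice without overlap.

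In light-treated against untreated 5xFAD HPC, 9 of 10 genes had a negative log2 fold change, with a median of -1.19 against 0.00 over all genes. None was called by edgeR or DESeq2. The share of genes called was 0.27% of those filtered and 0.31% of all with a count. An unadjusted p below 0.05 was found for 6 of 10 (Mrc1, Cd163, Pf4, F13a1, Cbr2 and Clec4n), all lower after light, against 15.0% of all genes in either direction. Cd163 and Pf4 had no overlap, with all 5xFAD+L mice below all 5xFAD mice, against 3.09% of all genes. Over all genes with a count, their log2 fold changes were -1.32 (SE 0.41, adjusted p = 0.151) for Cd163 and -1.35 (SE 0.43, adjusted p = 0.157) for Pf4. In the same fit Clec4n had -1.40 (SE 0.52, adjusted p = 0.212) and Cbr2 -1.38 (SE 0.58, adjusted p = 0.283). Pla2g2d was the exception, at 0.23 (SE 0.55, adjusted p = 0.863).

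Light-treated 5xFAD HPC was also set against WT HPC. By edgeR 0 of 10 were called, against 2.36% of filtered genes and 1.82% of all genes with a count, and none by DESeq2. At an unadjusted p below 0.05 the count was 0 of 10, against 14.5%. Of the 10, 6 were higher and 4 lower, and the median of their log2 fold changes was 0.14, that over all genes 0.03. The summed FPKM of the 10 was 4.78 to 7.50 in WT, 11.3 to 21.2 in 5xFAD and 4.94 to 9.08 in 5xFAD+L mice.

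**Figure D3:**
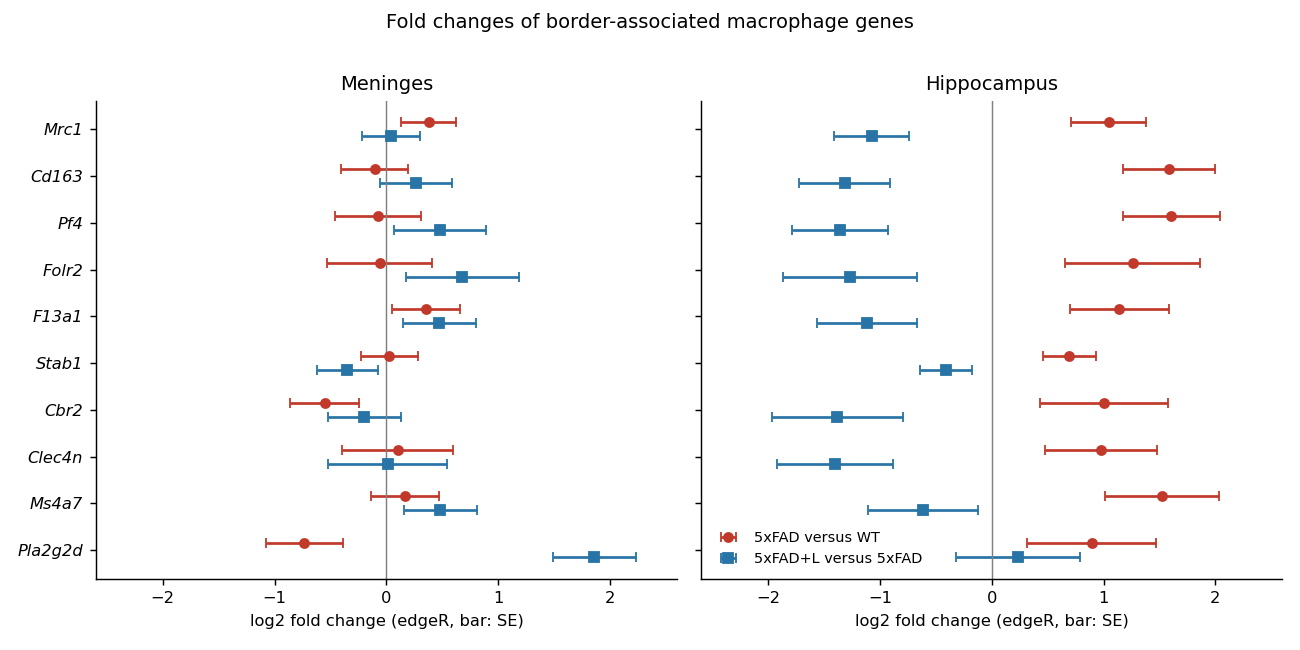
Log2 fold changes of the 10 genes with their SE (edgeR), 5xFAD versus WT (circles) and 5xFAD+L versus 5xFAD (squares), in meninges (left) and HPC (right, all genes with a count). In HPC all 10 circles lie above 0 and 9 of 10 squares below it. In meninges the circles run from -0.73 (Pla2g2d) to 0.38. The squares there run from -0.35 to 0.68, apart from Pla2g2d after light (1.86). The untreated 5xFAD mice stand in both comparisons.

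Genes of other cells moved in the same HPC libraries. Of 12 general leukocyte and macrophage genes, which microglia also express, 11 were called higher in 5xFAD than in WT mice. Among all 12981 tested genes, 549 were called higher. Ptprc (CD45) was at 0.50 to 0.97 in WT and 2.75 to 4.09 in 5xFAD mice. After light the median log2 fold change of the 12 genes was -0.21, and none had an unadjusted p below 0.05. The summed FPKM of the 12 was 775 to 1472 in 5xFAD+L, 1045 to 1720 in 5xFAD and 244 to 269 in WT mice. Leptomeningeal fibroblast genes summed to 398 to 939 in WT, 867 to 2805 in 5xFAD and 517.5 to 806 in 5xFAD+L mice. All 14 were above 0 in every HPC sample. Of the 13 tested, 4 were called higher in 5xFAD than in WT mice, against the same 549 of 12981. Fmod was called lower after light (log2 fold change -2.13, SE 0.39, adjusted p = 0.0482), 1 of 20 such genes among the 12981. Choroid plexus genes such as Ttr summed to 2831 in WT replicate 2, 3225 and 2947 in 5xFAD replicates 1 and 2, and 36.9 to 703 in the other 9 samples.

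**Figure D4:**
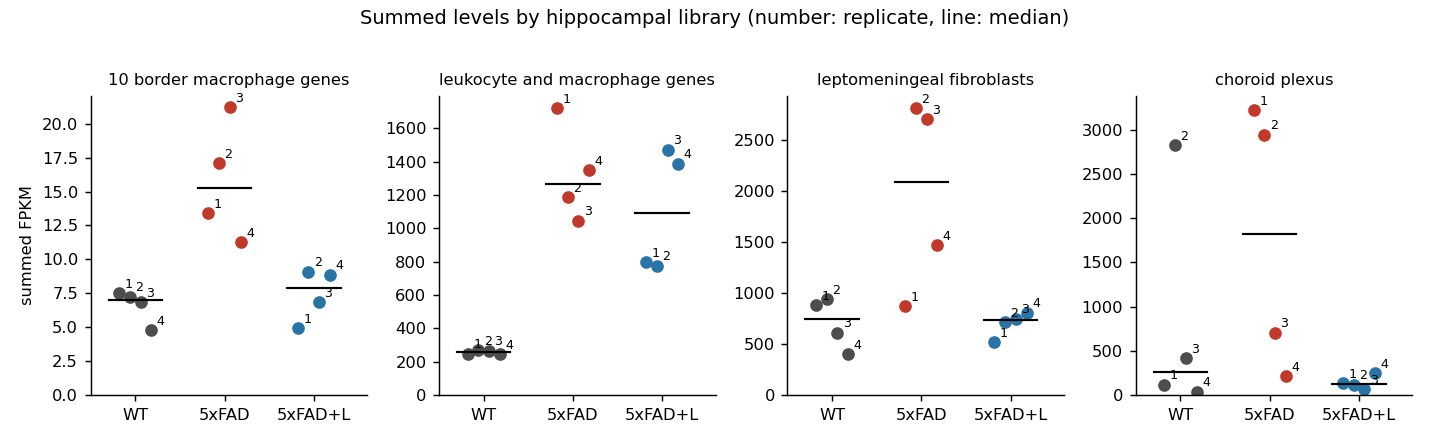
Summed FPKM (y axes, linear, from 0) in each HPC library of the 10 BAM genes and of lists of leukocyte and macrophage, leptomeningeal fibroblast and choroid plexus genes, with replicate numbers beside the points and the median as a line. The 5xFAD libraries with the highest BAM gene sums, 2 and 3, are also the highest in leptomeningeal genes (2805 and 2700).

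The part of these other genes in the BAM gene differences was not tested. The comparison of 5xFAD with WT mice was fitted again over all genes with a count without the libraries highest in them. Without the 2 highest in leptomeningeal genes, 5xFAD replicates 2 and 3, the log2 fold change of Pf4 was 0.85 (adjusted p = 0.373), that of Mrc1 0.52 (adjusted p = 0.548) and that of Cd163 1.51 (adjusted p = 0.108). Folr2 was the 1 gene called in that fit (1.88, adjusted p = 0.0399). Without the 3 highest in choroid plexus genes, Pf4 was at 1.63 (adjusted p = 0.111) and Cd163 at 1.42 (adjusted p = 0.273), and Mrc1 was the 1 gene called (1.44, adjusted p = 0.0487). The calls of Cd163 and Pf4 were thus lost in both fits, while the log2 fold changes of all 10 genes remained above 0. Replicates 2 and 3 were also the 5xFAD mice highest in Pf4 (6.09 and 10.31) and Mrc1 (0.86 and 1.26). A fall of these genes without them was therefore given by the choice of libraries. Both fits also held fewer mice, and leaving out 1 mouse kept the call of Cd163 in 1 and of Pf4 in 2 of 8 fits.

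Whether the meninges and the HPC differed in these effects was tested in a single fit of their 22 samples, in which all 10 genes passed the filter. The effect of 5xFAD over WT was lower in meninges than in HPC for all 10 genes, and 1 of 10, Cd163, had an adjusted p below 0.05, against 1.74% of 15132 genes. For Cd163 the difference was -1.71 on the log2 scale (SE 0.42, adjusted p = 0.0376), and it rests on the same low HPC counts. Leaving out 1 mouse at a time gave adjusted p from 0.0157 to 0.0883, below 0.05 in 2 of 15 fits. The adjusted p was 0.0546 without the filter, 0.645 with limma on log2(FPKM + 1), and 0.0899 and 0.245 without the libraries highest in leptomeningeal and in choroid plexus genes. With DESeq2 it was 0.0175 and with a replicate block 0.0357, and it was below 0.05 in 6 of 24 alternatives. At an unadjusted p below 0.05 the count was 6 of 10, against 12.8% of all genes, and the median was -1.37 against -0.11. The 12 leukocyte and macrophage genes had a median of -1.92 in the same test, with 9 called lower. The 14 leptomeningeal genes had one of -1.50, with 3 called lower. Of all 15132 genes, 252 were lower at an adjusted p below 0.05, with no fold threshold.
The effect of light on 5xFAD mice was higher in meninges than in HPC for all 10 genes, with a median of 1.49 against 0.06. None had an adjusted p below 0.05 by edgeR, against 1.05% of all genes, and 6 of 10 had an unadjusted p below 0.05, against 19.8%. Cd163 came closest (1.57, SE 0.43, adjusted p = 0.0696), and DESeq2 gave it an adjusted p of 0.0302. Stab1 had the smallest difference, 0.05 (SE 0.34). In this test the leptomeningeal genes had a median of 1.83, with 3 called higher. The 8 choroid plexus genes had one of 3.08, with none called and 5 at an unadjusted p below 0.05. Of all 15132 genes, 37 were higher at an adjusted p below 0.05, with no fold threshold. The part of these lists in the differences of the BAM genes between the tissues was not tested.

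Another list of 25 BAM genes, Lyve1 among them, was looked at beside the 10. In WT mice 19 of its 24 tested genes were called higher in meninges than in HPC, against 4000 of all 14144 tested genes. In HPC, 15 were tested and 6 were called higher in 5xFAD than in WT mice, against 549 of all 12981 tested genes. The 6 included Hpgd, the prostaglandin-degrading dehydrogenase (log2 fold change 1.37, SE 0.24, adjusted p = 0.00285), and Tgfbi, a secreted matrix protein (1.28, SE 0.29, adjusted p = 0.0153). After light none of the 15 was called by edgeR, and the median was -0.50. An unadjusted p below 0.05 with lower values was found for 8, against 2382 of all 12981 tested genes in either direction. Dab2, an endocytic adaptor, had the smallest p (-0.97, SE 0.27, adjusted p = 0.115).
In meninges none of the 25 was called in any comparison. After light 2 had an unadjusted p below 0.05, Slc40a1, the iron exporter ferroportin (0.77, SE 0.30, adjusted p = 0.334), and Cd209f, a lectin receptor (1.14, SE 0.52, adjusted p = 0.389). Lyve1, which BAMs and lymphatic endothelium share, had -0.41 (SE 0.36, adjusted p = 0.638). Over the same meninges samples the glucocorticoid-induced genes Fkbp5 (-2.57, SE 0.29, adjusted p = 0.00748) and Zbtb16 (-2.46, SE 0.31, adjusted p = 0.0125) fell after light. They were the 2 genes called in that comparison. Of 12 glucocorticoid-induced genes, 9 had an unadjusted p below 0.05 with lower values, against 12.7% of all tested genes in either direction.

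The 10 genes did not vary as a unit across the meninges. As a description over the 10 samples, which share libraries and depth, the log2 level of a gene was correlated with the mean of the other 9 at r = 0.87 for Folr2, 0.83 for Ms4a7 and 0.79 for Pf4, but at -0.23 for Cbr2 and -0.29 for Stab1. In WT meninges Folr2 was at 25.65, 22.89, 5.72 and 13.51 while Stab1 was at 19.19, 32.32, 80.24 and 81.29. Replicate 3 had the lowest Folr2, Pf4, Clec4n, Ms4a7, Cd163 and Pla2g2d of the WT mice. The 5 genes outside the 10 whose levels were most like the mean of the 10 were H3c13, Mterf1a, Cd209g, Morf4l1 and Il21r, with r from 0.90 to 0.91 over the 10 meninges samples. For the 4 genes that passed the filter in HPC they were Cdkn1c, Prdx4, Phlda3, Bmp4 and Fxyd5, with r from 0.91 to 0.93 over 12 samples.

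The FPKM of Stab1 had a further feature, seen when its values were compared with its counts. The CPM (the count scaled to a fixed library total) divided by FPKM gives the transcript length, in kb, that the quantification applied. For Stab1 it was 5.02 to 8.19 kb in the 12 HPC samples and 1.47 to 4.33 kb in the 10 meninges samples, with no overlap. In mLECs it ran from 0.54 to 7.75 kb. For Mrc1, by contrast, it was 5.48 to 5.72 kb in meninges and 5.44 to 5.47 kb in mLECs. In WT meninges Stab1 was at 83.1, 107, 156 and 161 CPM, a narrower spread than that of its FPKM. Levels of Stab1 per length thus depend on which transcript was credited, whereas the tests used its counts. Its gene (chr14:31139013-31168641, GENCODE vM21 on GRCm38) also overlaps Nt5dc2 on the other strand, and the libraries do not keep the strand.

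In sorted mLECs only Stab1 was found throughout. It was at 28.39, 67.39, 18.43 and 46.63 FPKM in WT, 57.60, 86.05 and 64.58 in 5xFAD and 121.20, 9.66 and 83.96 in 5xFAD+L libraries. By FPKM the light-treated libraries held both the highest and the lowest value. By CPM the highest was light-treated replicate 3 (335) and the lowest was WT replicate 3 (26.3). Light-treated replicate 2, the lowest by FPKM, was at 74.9 CPM with a credited length of 7.75 kb. The groups overlapped on either scale. The log2 fold change was 0.33 (SE 1.05) for 5xFAD over WT and 0.32 (SE 1.12) for 5xFAD+L over 5xFAD, both with an adjusted p of 1.00.
Mrc1 was above 0 in 4 of 10 libraries, at 3.21 and 6.06 in WT replicates 3 and 4, 14.97 in 5xFAD replicate 4 and 2.47 in 5xFAD+L replicate 1. Pf4 was above 0 in 2 (14.14 in WT replicate 4 and 14.01 in 5xFAD replicate 2). F13a1 reached 45.58 in WT replicate 2 and 0.01 in 1 other library, Cbr2 8.17 in WT replicate 3 and Pla2g2d 0.06 in WT replicate 4.
Cd163, Folr2, Clec4n and Ms4a7 were listed at 0 in all 10 libraries. A count of 0 allows up to 0.124 to 0.211 CPM (3 counts) at these depths, for counting error only. Mrc1 and Stab1 passed the filter, and neither was called in any of the 3 comparisons. Over all 8188 genes 0.0% were called for 5xFAD against WT, 0.0% for light against 5xFAD and 0.0122% for light against WT. None of the 2 had an unadjusted p below 0.05, and DESeq2 and limma called neither.

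**Figure D5:**
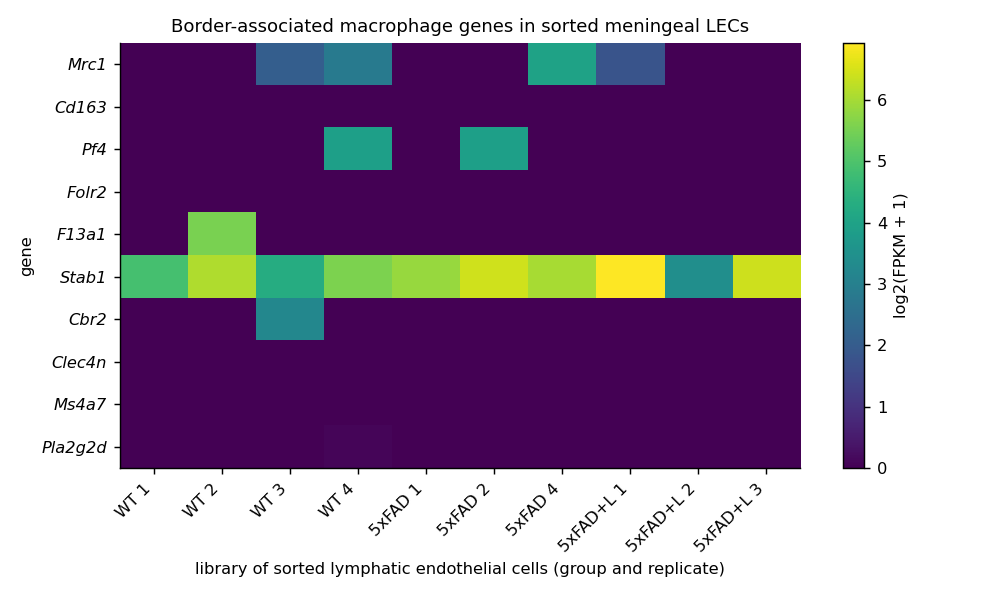
Log2(FPKM + 1) of the 10 genes (rows) in the 10 mLEC libraries (columns, by group and replicate), with dark cells at 0. Stab1 is above 0 in every library, Mrc1 in 4, and Cd163, Folr2, Clec4n and Ms4a7 in none.

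The markers of the sorted cells set these values in context. Ptprc (CD45), the antigen of the negative gate, was listed at 0 in all 10 libraries, as was the BAM lectin Cd209f. Of 12 leukocyte and macrophage genes, 1 to 5 were above 0 in a library. The 12 summed to an FPKM of 0.08 to 110 in WT, 23.2 to 185 in 5xFAD and 121 to 138 in 5xFAD+L libraries. A list of 7 genes of antigen-presenting macrophages summed to 0.82 to 2434 in WT, 110 to 849 in 5xFAD and 321 to 692 in 5xFAD+L libraries. The source of this RNA was not tested. Of the lymphatic markers, Flt4 (3.83 to 81.6) and the endothelial gene Pecam1 (189 to 398) were found in every library, but Prox1, the lymphatic lineage factor, was at 0 in 3 and Lyve1 in 2. Pdpn (podoplanin), the other antigen of the positive gate, was at 0 in WT replicates 2 and 4 and 5xFAD replicates 2 and 4, at 0.04 in 5xFAD+L replicate 3 and at 6.20 to 77.6 in the other 5 libraries. Between 5998 and 9020 genes had a count in an mLEC library, against 17427 to 19769 in meninges. The biological coefficient of variation between mLEC libraries was 1.89, against 0.35 in meninges and 0.20 in HPC.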

How the data were processed

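RNA-seq libraries were made by the authors with a Smart-seq2 protocol, which copies polyadenylated RNA, amplifies it by PCR and does not keep the strand, from single mice (HPC, meninges) or from cells sorted from single mice (mLECs). According to the methods, the authors filtered reads with fastp and quantified genes with RSEM, while the submitters' processing notes name Trimmomatic, HISAT2, StringTie and DESeq2 with the build mm10. The authors deposited expected counts per gene, estimated by the quantification and not normalized, and in a sample 81.6% to 89.6% of its nonzero values had no decimals. The authors also deposited FPKM per gene, scaled by transcript length and library size. HPC and meninges share a table and mLECs have their own, so levels were not tested across the tables. Genes were joined by identifier, since symbols differ between the tables.

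Expected counts were rounded, normalized by TMM and fitted with edgeR 4.0.16 in R 4.3.3, with the 3 groups of a tissue together and no covariate. The fit of WT meninges and WT HPC used 8 samples, and the difference of effects between the tissues 22. The steps were tested on simulated data. The alternatives were median-of-ratios scaling, no filter, no fold threshold, fits of just the compared groups, a replicate block, DESeq2 1.42.0, limma 3.58.1 on log2(FPKM + 1) and log2(FPKM + 0.1), and each mouse left out. A filter on a mean count of 10, the HPC fits of all genes with a count under the same alternatives, and fits without 1 WT meninges library, 3 HPC libraries or 2 HPC libraries were added after seeing the data.

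The members, lists and motifs were chosen with earlier results of these data known. All 10 members were named throughout, and of each other list at most 4 genes with the smallest p in a comparison, with Lyve1, Fkbp5, Zbtb16, Thy1 and the 5 genes most correlated with the members. Genes named as examples or markers of a list, and the comparison of Stab1 counts with FPKM, were chosen after their values were seen. Promoters came from RefSeq on GRCm38.p6 and gene positions from GENCODE vM21 on GRCm38, matched by symbol or identifier. Counts of replicates were compared by chi-square in 42 pairs. The statistic was at least 9.25 times its degrees of freedom, beyond sampling noise. Figures were drawn with matplotlib 3.10.9. Some items of the lists are not reported here.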

Additional observations from a re-analysis of the deposited data

Results flagged for a closer look

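In mLECs of WT mice, 1 library stood apart from 3 at 0 for Pf4 (FPKM 14.14), F13a1 (45.58), Cbr2 (8.17) and Pla2g2d (0.06), and these were 3 different libraries. With 3 values at 0 any remaining value above 0 stands apart by construction. In light-treated HPC, Mrc1 in replicate 4 (0.31) lay below the other mice, the nearest at 0.40. The check of a mouse far from its group was made on 46 groups of 4, gave these 5 cases, and by chance gives about 1 in 20 groups, a rate that does not apply to the 4 groups with 3 values at 0. The effect of 5xFAD over WT on Cd163 differed between meninges and HPC in a test of the difference (log2 -1.71, adjusted p = 0.0376 by edgeR). It was kept in 2 of 15 fits that left out a mouse, with DESeq2 (adjusted p = 0.0175) and with the replicate block (0.0357). Across all 24 alternatives it was kept in 6. The difference was lost without the filter (0.0546), with limma on log2(FPKM + 1) (0.645) and without either group of HPC libraries (0.0899 and 0.245).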

How the results depend on the processing

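Among members past both thresholds, the count of 0 in meninges for 5xFAD+L against 5xFAD became 1 with DESeq2, which called 72 genes in all against 2 by edgeR. In HPC, 5xFAD against WT had 1 called with the filter, 2 with no filter or with a mean count of at least 10, 0 with the replicate block or the compared groups alone, 0 to 1 with a mouse left out, and 0 without the 3 libraries highest in choroid plexus genes. Over all genes with a count the same comparison had 2 called, and 3 with DESeq2, whose share over all genes is not given here. It had 1 with the compared groups alone, 0 with the replicate block and 0 to 2 with a mouse left out. It had 1 without the libraries highest in choroid plexus genes (Mrc1) or in leptomeningeal genes (Folr2), where Cd163 and Pf4 were lost. For the difference of the 5xFAD effect between the tissues, the count of 1 (Cd163) became 0 with no filter, with limma at either pseudocount, and without either group of HPC libraries, and was 0 to 1 with a mouse left out. For the difference of the light effect the count of 0 became 1 with DESeq2. In all of these the cause was not tested. Over all genes DESeq2 called more than edgeR where few passed: 372 against 2 for 5xFAD+L over WT in meninges, 192 against 35 for 5xFAD+L over 5xFAD in HPC, 185, 357 and 464 against 0, 0 and 1 in mLECs, and 515 and 735 against 263 and 159 for the differences between the tissues. With the compared groups alone, the 35 in HPC became 0.

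The replicate numbers shared by the groups of a tissue were checked as pairs. Deviations of same-numbered samples were correlated between -0.31 and 0.244, so the numbers gave no sign of pairing within a tissue. Whether same-numbered HPC and meninges samples came from the same mouse was not checked, and the fits across these tissues treated all samples as independent. With the replicate block Pf4 in HPC had an adjusted p of 0.0616 and Cd163 of 0.069. No member with an unadjusted p below 0.05 changed direction. HPC values rest on few reads, 3 to 39 for Ms4a7 and 4 to 33 for Cd163 in WT and 5xFAD mice. In mLECs the spread between libraries limits any statement, and fitted folds of Mrc1 there have an SE of 3.55 or more.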
